A study of Mus musculus with 6 samples.

Results

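The oligodendrocyte transcription factors are 10 genes, *Olig1*, *Olig2*, *Sox10*, *Sox8*, *Nkx2-2*, *Tcf7l2*, *Zfp488*, *Zfp536*, *Myrf* and *Nkx6-2*, chosen by name to run from factors of the whole lineage to those of mature cells. All 10 were found among the 18254 genes of the deposited table by their Ensembl identifiers in GENCODE M21, and all 10 passed the filter on low values (5 or more normalized counts on average), which left 16714 genes for testing. RNA sequencing had been performed on the medial prefrontal cortex (mPFC) of male EGFP-*Shank3* transgenic (*Shank3* TG) mice and of their wild-type (WT) littermates, all on a C57BL/6J background and aged 10 to 12 weeks. Each genotype had 3 libraries, every one from the pooled tissue of a pair of mice, so that a replicate is a pool and not an animal. The comparison addressed which transcripts differ in the mPFC when the postsynaptic scaffold gene *Shank3* is overexpressed. The study reported higher *Shank3* in the mPFC and striatum of these mice. It also used *Shank3* as a positive control in cortex, hippocampus, striatum and cerebellum. The cell types in which the transgene is active were not given in the sources used here.

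Oligodendrocytes make the myelin of the brain and arise from precursor cells that persist in the adult cortex. The basic helix-loop-helix factors OLIG1 and OLIG2 and the SOX factor SOX10 are present from the precursor to the mature cell, and SOX8 is a close relative of SOX10. NKX2-2, TCF7L2, ZFP488 and ZFP536 act around the step at which precursors leave the cycle and differentiate. MYRF is a membrane-bound factor that is cleaved and then switches on myelin genes together with SOX10, and NKX6-2 is a homeodomain factor of maturing and myelinating cells. In whole tissue, fewer cells of a type and less RNA per cell cannot be told apart.

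In the *Shank3* TG mPFC the lowest levels relative to WT were those of *Nkx6-2* and *Myrf*, the factors of maturing cells, followed by *Zfp536*. All *Shank3* TG libraries lay below all WT libraries for these 3, with log2 fold changes of -0.60, -0.41 and -0.27. The factors of the whole lineage were lower by less and overlapped between the genotypes, at -0.14 to -0.21, and *Zfp488*, *Nkx2-2* and *Tcf7l2* lay at -0.05, -0.10 and 0.08. No factor passed the adjusted threshold of 0.05 in limma, and neither did any other gene (0% of the 16714 tested). *Shank3* itself, overexpressed by design, did not pass either, so a factor short of this threshold is not shown to be unchanged. The study's own DESeq2 fit of these samples did call genes, with *Myrf* among the lower ones. In limma 336 genes had an unadjusted p under 0.05. The adjusted p of each of the 10 was 1.

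*Shank3*, the overexpressed gene, had 17470, 19003 and 16310 normalized counts in the libraries TG-1, TG-2 and TG-3 and 8374, 8173 and 6791 in WT-1, WT-2 and WT-3. Library totals ranged from 28363967 to 29447717 normalized counts. TG-3 and WT-3 stood apart from the other 4 libraries, with a correlation across genes of 0.62 between their deviations from the genotype means. Without both of them, the same limma fit gave log2 fold changes of -0.61 for *Nkx6-2*, -0.29 for *Myrf* and -0.29 for *Zfp536*, with unadjusted p-values of 0.00342, 0.0457 and 0.0341.

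RefSeq promoter sequence on GRCm38.p6 was at hand for 7 of the 10 factors, in 8 windows of the 250 bases before a start site, and not for *Myrf*, *Sox10* and *Olig1*. The windows are shown for a factor whose libraries did not overlap (*Nkx6-2*), one with a difference near 0 (*Zfp488*) and the one with the widest spread (*Tcf7l2*). They are the windows free of annotated exons, except for the second start of *Tcf7l2*, which is not shown. Capitals mark words for the factors' own families, an E-box (CANNTG) in *Nkx6-2* and the SOX word ACAATG in *Tcf7l2*, read on either strand.
*Nkx6-2*, chr7:139582798-139583047, minus strand: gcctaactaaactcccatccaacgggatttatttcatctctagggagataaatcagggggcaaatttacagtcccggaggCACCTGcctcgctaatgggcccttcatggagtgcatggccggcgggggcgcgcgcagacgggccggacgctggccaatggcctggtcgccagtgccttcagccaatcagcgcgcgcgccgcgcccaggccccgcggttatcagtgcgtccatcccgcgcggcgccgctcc
*Zfp488*, chr14:33978765-33979014, minus strand: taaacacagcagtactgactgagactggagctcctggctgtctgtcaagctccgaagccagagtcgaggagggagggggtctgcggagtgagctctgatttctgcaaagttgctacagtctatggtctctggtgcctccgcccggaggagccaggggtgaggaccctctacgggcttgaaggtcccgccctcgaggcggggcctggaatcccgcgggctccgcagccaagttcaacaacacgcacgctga
*Tcf7l2*, chr19:55741560-55741809, plus strand: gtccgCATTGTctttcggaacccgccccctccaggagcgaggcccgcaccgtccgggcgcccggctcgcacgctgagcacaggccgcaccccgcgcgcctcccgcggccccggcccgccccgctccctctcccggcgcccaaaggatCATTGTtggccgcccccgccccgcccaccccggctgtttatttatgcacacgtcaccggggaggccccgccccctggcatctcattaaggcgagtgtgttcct

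The window of *Nkx6-2* held 1 E-box, spelled CACCTG. The search took any CANNTG and was not narrowed to spellings preferred by OLIG factors. At least 1 such word is held by 66.2% of 32851 RefSeq promoter windows of the same length. The window of *Tcf7l2* held ACAATG at 2 places, a word found in 10.7% of windows, and that of *Zfp488* held none of the words searched. Over the 8 windows, the E-box was found in 3 (*Nkx2-2*, *Nkx6-2* and *Sox8*), ACAATG in 2 (*Olig2* and *Tcf7l2*) and the SOX word ACAAAG in 1, the second *Tcf7l2* window, against 16.5% of all windows. The NKX2 word AAGTG was found in 3 (*Nkx2-2*, *Zfp536* and the second *Tcf7l2* window) against 40.7%, and the homeodomain word TAATTA in 1 (*Zfp536*) against 4.84%. The TCF/LEF word CTTTGA and the MYRF words CTGGCAC and CTGGTAC were in none of the 8, against 13.8%, 4.19% and 1.83%. CTTTGA and the reverse complement of ACAAAG share their first 5 letters. A match describes letters in a window and is not a binding site.

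In the WT mPFC the levels of the factors were compared per kilobase of exon, on the scale of normalized counts. *Olig1* was the highest, at 927 ± 75.3 normalized counts per kb (SD, n = 3), and lay apart from *Sox8* at 444 ± 42.9. *Sox8* in turn lay apart from *Sox10* at 299 ± 56, which overlapped *Zfp488* at 237 ± 30.5, and *Zfp488* overlapped *Olig2* at 195 ± 18.9. Below them *Myrf* had 146 ± 20.7 and *Nkx6-2* 104 ± 14.3 normalized counts per kb, each apart from its neighbours in the order. *Zfp536* at 51.4 ± 3.4 overlapped *Nkx2-2*, which ran from 17.8 to 48.8, and *Nkx2-2* overlapped *Tcf7l2*, which ran from 10.2 to 37.5. In the *Shank3* TG libraries the mean levels had the same order, from 839 ± 46.9 for *Olig1* to 20.6 ± 10.1 for *Tcf7l2*. Exon lengths were those of all annotated transcripts merged, so a factor with a long transcript that this tissue does not use has its level per kb understated.

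**Figure D1:**
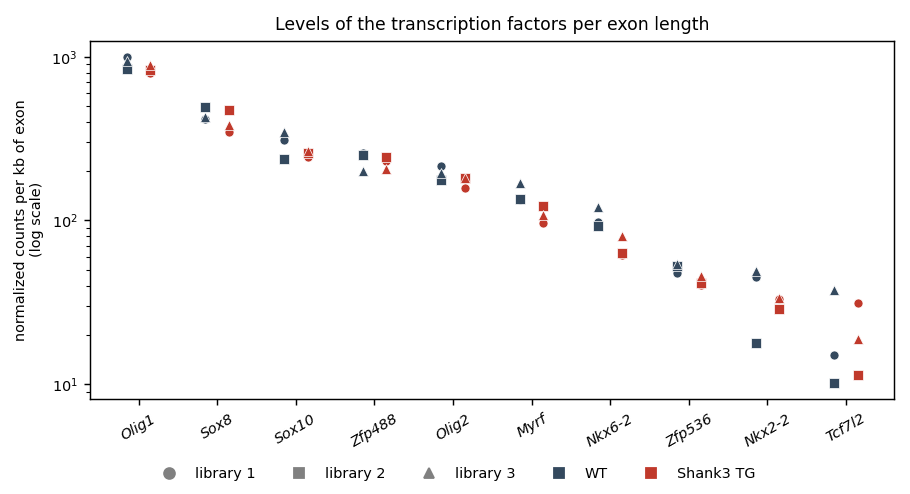
Normalized counts per kb of merged exon (log axis) for each factor in each library, WT in dark blue and *Shank3* TG in red, ordered by the WT mean. *Olig1* is the highest at a WT mean of 927 and *Tcf7l2* the lowest at 20.9, and *Tcf7l2* and *Nkx2-2* have the widest spread.

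*Olig1* (ENSMUSG00000046160, GRCm38 chromosome 16 from 91269772 to 91271933) and *Olig2* (ENSMUSG00000039830, chromosome 16 from 91225457 to 91228677) lie 41094 bases apart on the same strand. *Olig1* had 1719, 1800 and 1921 normalized counts in TG-1 to TG-3 and 2154, 1831 and 2025 in WT-1 to WT-3. TG-1 and TG-2 were below all WT libraries and TG-3 was above WT-2, so the groups overlapped. The means were 1814 ± 101 and 2003 ± 163 (SD, n = 3 each), and the log2 fold change was -0.14 (SE 0.09, 95% confidence interval -0.34 to 0.06, unadjusted p = 0.144 in limma), and -0.09 without WT-1. *Olig2*, which specifies the lineage, gave 400.8, 462.2 and 462.5 normalized counts in *Shank3* TG against 542, 446.3 and 494.4 in WT. TG-1 was the lowest of the 6 libraries and WT-1 the highest, and TG-2 and TG-3 lay between WT-2 and WT-3. Its log2 fold change was -0.16 (SE 0.11, interval -0.42 to 0.10, unadjusted p = 0.19 in limma), and it was -0.09 without TG-1 or without WT-1. The neighbours varied together over the 6 libraries, with a Pearson r of 0.95 on log2 values, and 0.92 after the genotype means were removed. Both values describe 6 libraries that carry their own depth and composition into each gene.

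*Sox10* (ENSMUSG00000033006, chromosome 15 from 79154908 to 79165240) is on the chromosome of *Shank3*, which starts 10334382 bases further along. *Sox10* gave 741.3, 791.2 and 812 normalized counts in *Shank3* TG against 941.4, 728.7 and 1066 in WT. The *Shank3* TG libraries lay within a narrow range, whereas WT-2 was below all of them and WT-1 and WT-3 above. The means were 781.5 ± 36.3 and 912.2 ± 171 (SD, n = 3 each) and the log2 fold change was -0.21 (SE 0.14, interval -0.53 to 0.12, unadjusted p = 0.179 in limma). Without WT-2 it was -0.36 and without WT-3 it was -0.08, so that each of these WT libraries moved it by more than 1.5 times. *Sox8* (ENSMUSG00000024176, chromosome 17 from 25565892 to 25570686) gave 1078, 1470 and 1196 normalized counts in *Shank3* TG against 1290, 1538 and 1328 in WT. TG-1 and TG-3 were below all WT libraries, while TG-2 was above WT-1 and WT-3. Its log2 fold change was -0.16 (SE 0.13, interval -0.46 to 0.14, unadjusted p = 0.254 in limma). It was -0.06 without TG-1, -0.08 without WT-2 and -0.28 without TG-2, the last with an unadjusted p of 0.0445 in limma. The libraries numbered 2 were the highest of their genotype, and at each replicate number the *Shank3* TG library was the lower, by log2 differences of -0.26, -0.07 and -0.15. In the fit blocked on the replicate number the interval was narrower, from -0.31 to -0.01, with an unadjusted p of 0.0389 and an adjusted p of 0.994 in limma.

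*Nkx2-2* (ENSMUSG00000027434, chromosome 2 from 147177546 to 147194243), a homeodomain factor that promotes the onset of differentiation, gave 95.49, 82.26 and 96.95 normalized counts in *Shank3* TG against 129.5, 51.17 and 140.3 in WT. All *Shank3* TG values fell between WT-2 and the other WT libraries. The log2 fold change was -0.10 (SE 0.36, interval -0.93 to 0.74, unadjusted p = 0.796 in limma), and it was -0.56 without WT-2 and 0.16 without WT-3. *Nkx2-2* and *Sox10* shared the low value in WT-2, and the r between them was 0.83 over the 6 libraries and 0.92 within genotypes.

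*Tcf7l2* (ENSMUSG00000024985, chromosome 19 from 55741820 to 55933654), a partner of beta-catenin in Wnt signalling that is transient in differentiating oligodendrocytes and also present in thalamic neurons, gave 275.3, 99.73 and 166.2 normalized counts in *Shank3* TG against 132.1, 89.61 and 328.8 in WT. TG-1 and WT-3 were high and TG-2 and WT-2 low, and the highest library had 3.67 times the lowest, the widest range of the 10 factors. Its log2 fold change was 0.08 (SE 0.51, interval -1.11 to 1.26, unadjusted p = 0.886 in limma), and it ran from -0.33 without WT-2 to 0.60 without WT-3. With the replicate block the interval was narrower, from -0.64 to 0.79. Among the thalamic genes, *Plekhg1* gave 501.3, 353.6 and 312.5 normalized counts in *Shank3* TG against 494.8, 162.1 and 740.6 in WT, also with WT-3 and TG-1 the highest and WT-2 the lowest. *Prkcd* (222.7 to 305.8, highest in TG-2) and *Rgs16* (201.8 to 282.4, lowest in WT-1) had other orders. *Slc17a6*, a vesicular glutamate transporter and the defining gene of that list, lay between 336.5 and 418.2 in all 6 libraries, with WT-2 the highest and all *Shank3* TG values below all WT values. The part of thalamic tissue in the *Tcf7l2* values was not tested.

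*Zfp488* (ENSMUSG00000044519, chromosome 14 from 33967070 to 33978764), a zinc-finger protein that works with OLIG2, gave 997.7, 1053 and 888.6 normalized counts in *Shank3* TG against 1110, 1075 and 867.8 in WT. The libraries numbered 3 were the lowest in both genotypes and the groups overlapped. Its log2 fold change was -0.05 (SE 0.12, interval -0.32 to 0.22, unadjusted p = 0.684 in limma). *Zfp536* (ENSMUSG00000043456, chromosome 7 from 37472135 to 37773641), a zinc-finger protein of both neural and oligodendrocyte cells, gave 373.8, 380.4 and 422.9 normalized counts in *Shank3* TG against 438.2, 485.5 and 497.5 in WT. Every *Shank3* TG library was below every WT library, with TG-3 nearest to WT-1. The means were 392.4 ± 26.6 and 473.8 ± 31.3 (SD, n = 3 each), and the log2 fold change was -0.27 (SE 0.10, interval -0.50 to -0.04, unadjusted p = 0.0277 in limma). The unadjusted p was between 0.0737 and 0.0933 without TG-1, TG-2, WT-2 or WT-3.

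*Myrf* (ENSMUSG00000036098, chromosome 19 from 10208272 to 10240748) gave 830.2, 1053 and 930.3 normalized counts in *Shank3* TG against 1135, 1154 and 1451 in WT. The groups did not overlap, although TG-2 was close to WT-1 and WT-2. The means were 937.9 ± 112 and 1247 ± 177 (SD, n = 3 each), and the log2 fold change was -0.41 (SE 0.13, interval -0.71 to -0.11, unadjusted p = 0.0138 in limma). It ranged from -0.49 without TG-2 to -0.29 without WT-3, and the unadjusted p was 0.0545 without TG-1. *Nkx6-2* (ENSMUSG00000041309, chromosome 7 from 139579376 to 139582797) gave 116.6, 121.3 and 154 normalized counts in *Shank3* TG against 187.9, 177.5 and 229.1 in WT. Its highest *Shank3* TG library, TG-3, was below the lowest WT library, WT-2. The means were 130.6 ± 20.4 and 198.2 ± 27.3 (SD, n = 3 each), and the fitted fold, from the mean log2 values, was 0.660. The log2 fold change of -0.60 (SE 0.16, interval -0.98 to -0.22, unadjusted p = 0.00644 in limma) was the largest of the 10 factors, and leaving out any single library kept it between -0.72 and -0.49. The last exon of *Nkx6-2* overlaps *Inpp5a* on the opposite strand by 277 bases, and whether the counting used strand was not stated, so a share of its counts may belong to that gene. *Olig1*, *Sox8*, *Nkx2-2* and *Zfp536* likewise overlap annotated genes on the other strand.

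**Figure D2:**
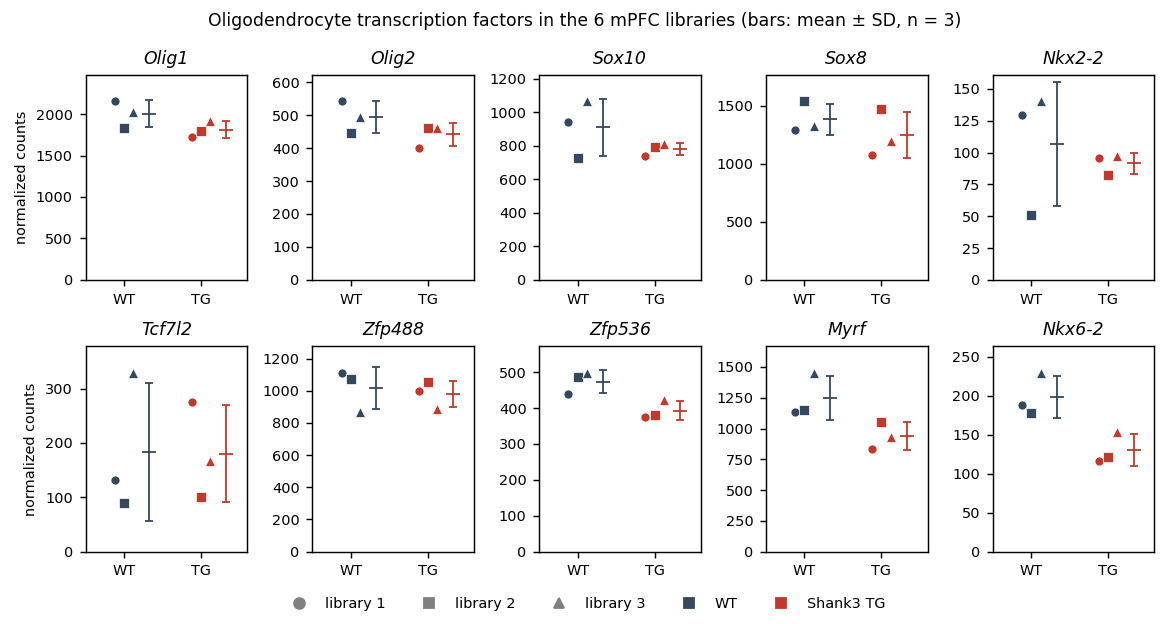
Normalized counts (linear axes from 0) of each factor in the WT (dark blue) and *Shank3* TG (red) libraries, with the marker shape giving the library number and bars the mean and SD of 3 libraries. The red points lie below all dark blue ones for *Zfp536*, *Myrf* and *Nkx6-2* and overlap them for the other 7 factors.

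Read against all genes, 3 of the 10 factors had an unadjusted p under 0.05 with a lower level in *Shank3* TG, where 1.08% of the genes tested did. For the same 3 factors all *Shank3* TG libraries lay below all WT libraries, which held for 3.12% of genes. For 9 of the 10 the log2 fold change was below 0, against 51.4% of genes, the exception being *Tcf7l2*, whose sign changed with the libraries used. The median log2 fold change was -0.16 over the factors and 0.00 over all genes. The 10 factors were measured in the same libraries, so these counts are not separate observations. They were also chosen with earlier results of these data known, and the study had reported *Myrf* as lower. The shares are therefore a description and not a test of enrichment.

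The study speaks of 3 pairs of RNA samples, without saying that equal replicate numbers are pairs. Deviations of libraries with the same number correlated at 0.30, 0.33 and 0.62 for numbers 1, 2 and 3. TG-1 with WT-2 and TG-2 with WT-1 gave 0.27 and 0.23, so numbers 1 and 2 were hardly told apart. The number was used as a block in an alternative fit. With the number as a block, the unadjusted p was under 0.05 with a lower level for 4 factors, *Sox8* joining the other three, against 2.66% of genes. At each number the *Shank3* TG library was the lower for 5 factors, *Olig1*, *Sox8*, *Zfp536*, *Myrf* and *Nkx6-2*, against 13.2% of genes. For *Nkx6-2* the log2 differences were -0.68, -0.55 and -0.57 at numbers 1, 2 and 3. For *Myrf* they were more uneven, at -0.45, -0.13 and -0.64. The smallest adjusted p of the 10 in this fit was 0.416, for *Nkx6-2*, followed by 0.491 for *Myrf* (limma), and the 1 gene past the adjusted threshold was not a factor. With the limma z-scores rescaled by their interquartile range to an empirical null, 26 genes passed the adjusted threshold and again no factor did. The nearest were *Nkx6-2* at an adjusted p of 0.067 and *Myrf* at 0.125 in limma. With this rescaling 4 factors, *Olig1* with *Zfp536*, *Myrf* and *Nkx6-2*, were lower at an unadjusted p under 0.05, against 3.73% of genes. The authors used another empirical-null method (fdrtool) on DESeq2 p-values, and the study reported *Myrf* among its decreased genes.

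**Figure D3:**
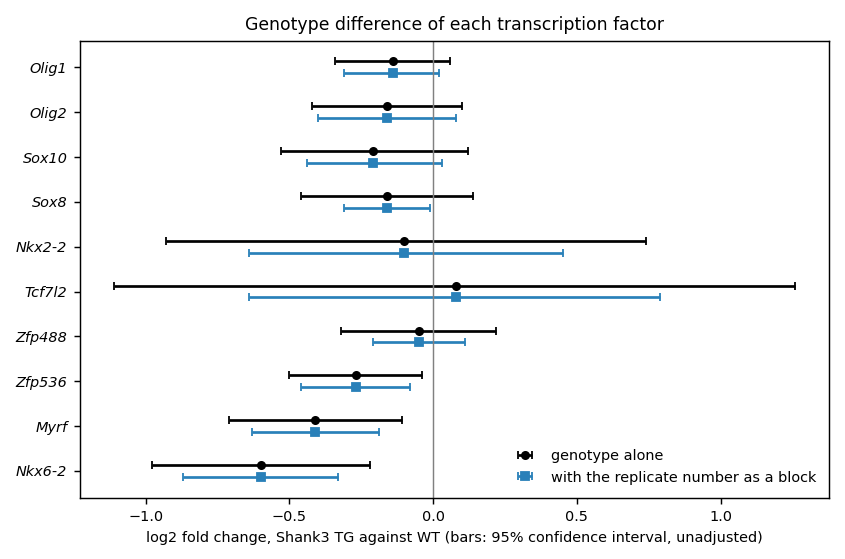
Log2 fold change of each factor, *Shank3* TG against WT, with its unadjusted 95% confidence interval, from the limma fit with genotype alone (black circles) and blocked on the replicate number (blue squares). The intervals of *Zfp536*, *Myrf* and *Nkx6-2* lie below 0 in both fits and that of *Sox8* in the blocked fit alone, and *Tcf7l2* has the widest, from -1.11 to 1.26.

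Single libraries weighed on several factors at a time. TG-1 had the lowest value of all 6 libraries for 6 factors, WT-3 had the highest for 6, *Zfp536*, *Myrf* and *Nkx6-2* among them in both cases, and WT-2 had the lowest of the WT libraries for 6. The factors with a lower level at an unadjusted p under 0.05 were *Nkx6-2* alone without TG-1, and *Myrf* and *Nkx6-2* without WT-3. Without WT-2 there were 4, in which *Sox10* (-0.36, unadjusted p = 0.0104 in limma) and *Nkx2-2* (-0.56, unadjusted p = 0.0132 in limma) joined *Myrf* and *Nkx6-2* and *Zfp536* was missing.

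Within a library, the ratio to *Sox10* shows which factors differed beyond the marker of the whole lineage, whatever the scaling of the library. The log2 ratio of *Nkx6-2* to *Sox10* was -2.66, -2.70 and -2.39 in *Shank3* TG against -2.32, -2.03 and -2.21 in WT. All *Shank3* TG ratios were below all WT ratios, with a mean difference of -0.39. The exact permutation test gave p = 0.1 (two-sided), which is the smallest that 3 against 3 libraries allow, and 0.9 after adjustment over the 9 ratios. For *Myrf* the log2 ratio was 0.16, 0.41 and 0.20 in *Shank3* TG against 0.27, 0.66 and 0.44 in WT. These overlapped, with a mean difference of -0.20 (exact permutation p = 0.2), and the *Shank3* TG library was the lower at each replicate number. That difference was -0.10 without WT-2 and -0.30 without WT-1. *Zfp536* did not stand below *Sox10* in the same way. Its mean difference was -0.07 (exact permutation p = 1), with WT-2, where *Sox10* was low, the only WT ratio above the *Shank3* TG ones. The other 6 ratios had differences from 0.05 to 0.28 (exact permutation p from 0.6 to 1). With *Olig2* in place of *Sox10*, the difference was -0.44 for *Nkx6-2*, again without overlap (exact permutation p = 0.1), and -0.25 for *Myrf* (exact permutation p = 0.2).

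**Figure D4:**
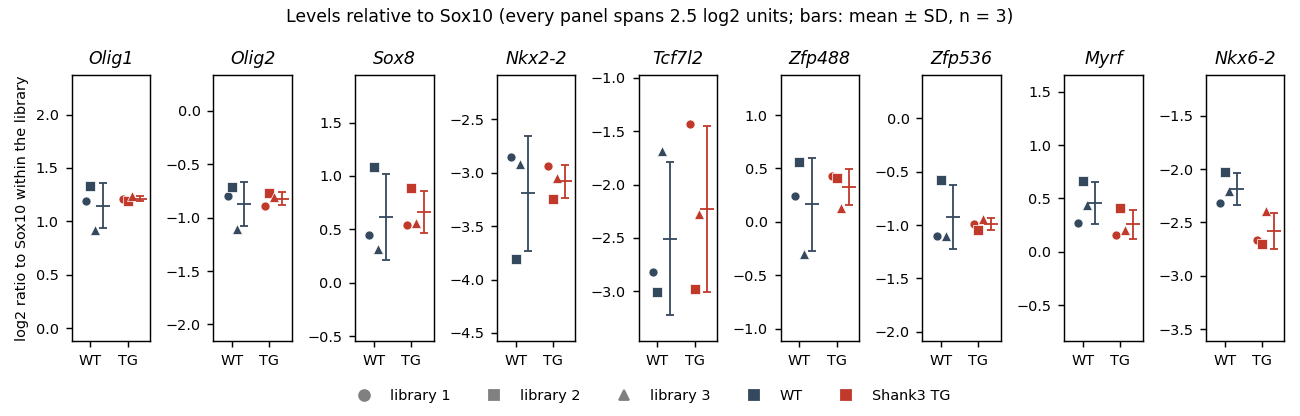
Log2 ratio of each other factor to *Sox10* within a library, WT in dark blue and *Shank3* TG in red, with marker shapes for library numbers and bars for the mean and SD of 3 libraries; every panel spans the same range. Only the *Nkx6-2* panel shows no overlap, with *Shank3* TG ratios from -2.70 to -2.39 and WT ratios from -2.32 to -2.03.

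The genes of the myelin sheath and of mature oligodendrocytes had log2 fold changes from -0.59 to -0.01, with a median of -0.43 against 0.00 over all genes. All 17 were below 0, against 51.4% of genes, and 15 were lower at an unadjusted p under 0.05, against 1.08% of genes, but none passed the adjusted threshold in limma. *Mbp*, a structural protein of compact myelin, gave 34146, 43598 and 29865 normalized counts in *Shank3* TG against 53914, 51259 and 41952 in WT, so that TG-2 was above WT-3, and its log2 fold change was -0.46. *Mobp*, another myelin protein, was at -0.54 and *Cnp*, an enzyme of the myelin cytoplasm, at -0.28, both without overlap between genotypes. The list summed to 85953 to 110899 normalized counts in *Shank3* TG and to 127621 to 129724 in WT. *Gjb1*, a gap junction protein singled out after its values were seen, was at -0.01, with a higher mean in *Shank3* TG (187.6 against 173.4 normalized counts). The study itself reported myelin genes from these samples, so this list is not independent evidence of its direction.

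The genes of earlier stages lay closer to 0, although the difference between the lists was not tested. The oligodendrocyte precursor genes had a median of -0.02, with 5 of 8 lower, against 51.4% of genes, and 1 lower at an unadjusted p under 0.05, against 1.08% (*Lhfpl3* was not analysed here). *Pdgfra*, the growth factor receptor that marks precursors, gave 1364, 1761 and 1371 normalized counts in *Shank3* TG against 1722, 1482 and 1382 in WT, for a log2 fold change of -0.03. *Ptprz1* and *Cacng4* were at -0.03 and -0.01, and *Vcan*, a matrix proteoglycan, was the gene with the low p, at -0.32 and without overlap. The 7 genes of newly formed oligodendrocytes had a median of -0.05, with 5 lower and 2 higher. *Bcas1* gave 2306, 2755 and 2469 normalized counts in *Shank3* TG against 3414, 3175 and 3658 in WT, for a log2 fold change of -0.45 without overlap (unadjusted p = 0.00143 in limma). *Fyn*, *Gpr17* and *Itpr2* lay between -0.05 and 0.02. With the replicate block 3 of the 7 were lower at an unadjusted p under 0.05, against 2.66% of genes. These were *Bcas1*, *Tmem163* and *Enpp6*, while *Bmp4*, a secreted growth factor, was the highest of the list at 0.32, and the last 3 were named after their values were seen.

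Other regulators of the lineage were nearer to 0 than *Myrf* and *Nkx6-2*. Of 25 such genes, 18 were lower, against 51.4% of genes, and 7 higher. In limma 0 were lower at an unadjusted p under 0.05 without or with the block, against 1.08% and 2.66% of genes, and the median log2 fold change was -0.04. The 4 most abundant were *Thra*, a thyroid hormone receptor, at 0.04, *Tcf4*, an E-protein that pairs with OLIG2, at -0.09, *Klf9* at -0.13 and *Zeb2* at -0.02. *Klf9* and *Zeb2* were high in both libraries numbered 3, with 8137 and 9316 normalized counts of *Klf9* in TG-3 and WT-3 against 4698 to 5608 in the others. *Tmem98*, which binds MYRF and holds back its cleavage, had the lowest value of this list, -0.26, with an unadjusted p of 0.114 in limma, and was named after its value was seen.

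The Wnt and beta-catenin genes, the pathway of TCF7L2, were spread around 0. There were 8 lower, against 51.4% of genes, and 9 higher among 17, with a median of 0.01, and 0 with an unadjusted p under 0.05 in the limma fit with or without the block. *Ctnnb1*, which encodes beta-catenin, had a log2 fold change of 0.07, and *Apc* and *Gsk3b*, of the complex that degrades it, had -0.09 and -0.03. *Daam2*, a Wnt effector that inhibits oligodendrocyte differentiation, had -0.09.

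**Figure D5:**
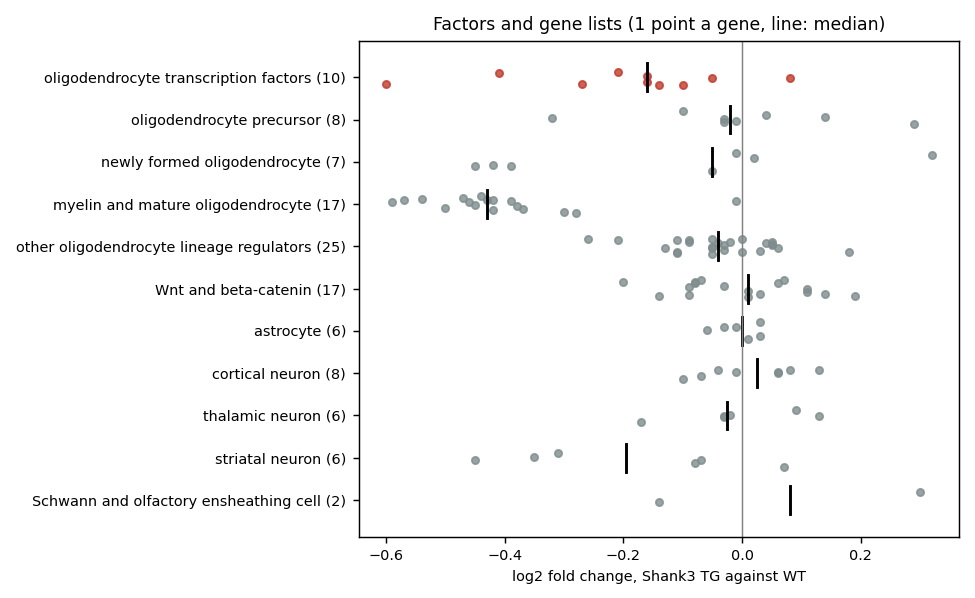
Log2 fold changes, *Shank3* TG against WT, of the oligodendrocyte transcription factors (red) and of the genes of each list (grey), 1 point a gene, with a black line at the median and the number of genes in brackets. The myelin and mature oligodendrocyte genes centre at -0.43 and the factors at -0.16, while the lists of precursors, other lineage regulators, Wnt genes, astrocytes, cortical neurons and thalamic neurons centre between -0.04 and 0.02, the newly formed oligodendrocyte list at -0.05, striatal neurons at -0.19 and the 2 Schwann and olfactory ensheathing genes at 0.08.

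Markers of other cell types were set beside the factors. The 6 astrocyte genes had a median log2 fold change of 0.00 and summed to 26903 to 31568 normalized counts in *Shank3* TG and 27880 to 31042 in WT. The 8 cortical neuron genes had a median of 0.02, with 4 lower and 4 higher. *Slc17a7*, the transporter of cortical excitatory neurons, was at 0.13, *Gad1*, of inhibitory neurons, at 0.06, *Tbr1*, a factor of deep-layer neurons, at -0.04 and *Rbfox3*, a marker of most neurons, at -0.07. The sums of the 6 thalamic genes ran from 1174 to 1432 and from 1141 to 1748, and those of the 6 striatal genes from 2559 to 2866 and from 2644 to 2761. Of the striatal genes 5 of 6 were lower, against 51.4% of genes, with a median of -0.19 (-0.07 without TG-1). *Ppp1r1b*, a phosphatase regulator of striatal neurons and the most abundant of the list, was at 0.07, and *Adora2a*, a defining receptor gene of striatal neurons, had 48.32, 50.59 and 45.78 normalized counts against 66.05, 55.65 and 58.97. *Rgs9* was at -0.35 and *Drd1* at -0.08, both with overlap, and the part of tissue boundaries in the factors' values was not tested. SOX10 is also present in Schwann and olfactory ensheathing cells. Of their markers, *Foxd3* was under the filter, with at most 13.3 normalized counts, in TG-2, and *Pmp2* was not analysed here. *Frzb* and *Prx* were at 0.30 and -0.14, a median of 0.08 that was 0.85 with no filter, when genes under it entered, and *Frzb* was higher with the replicate block at an unadjusted p of 0.0233 in limma.

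The genes most like *Myrf* over the 6 libraries, among 12337 that averaged 100 or more normalized counts, were *Cldn11*, *Kif13a* and *Plekhh1*, with Pearson r of 0.989, 0.985 and 0.985. *Cldn11*, a tight junction protein of myelin, gave 1627, 2095 and 1839 normalized counts in *Shank3* TG against 2399, 2296 and 2826 in WT, with TG-1 the lowest and WT-3 the highest, as for *Myrf*. Those most like *Sox10* were *Scara3*, *Nek7* and *Mettl17* (r of 0.993, 0.988 and 0.987), and those most like *Tcf7l2* were *Fcer1g*, *Sac3d1* and *Fan1* (r of 0.990, 0.985 and 0.979). With 6 points and this many genes, such values are a description of shared library patterns. Among the factors themselves, *Zfp536* and *Nkx6-2* had an r of 0.94, and 0.75 within genotypes, and *Myrf* and *Nkx6-2* 0.86 and 0.54. *Tcf7l2* ran opposite to *Sox8*, with an r of -0.70, and -0.76 within genotypes.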

How the data were processed

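The authors made stranded mRNA libraries (TruSeq), estimated transcript abundance with Salmon 0.9.1 on GRCm38 with GC bias correction, summed it to genes with tximport and normalized it in DESeq2 1.19.11 under R 3.6.0. The deposited values are this signal, normalized counts (read counts divided by size factors), for 18254 genes in 6 libraries. They are not whole numbers, and at most 40.9% of the low values of a library lay on one step, so reads were not recovered, read depth per library is unknown, since size factors have been divided out, and no counting interval was given. Names and positions came from GENCODE M21 (18215 genes matched).

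Genes averaging 5 or more normalized counts were fitted in limma 3.58.1 (R 4.3.3) on log2(value + 1), with genotype alone and a mean-variance trend in eBayes. Two-sided p-values were adjusted over all 16714 genes (Benjamini-Hochberg) and read at a threshold of 0.05. A fold change is on the log2(value + 1) scale, which understates low genes. Ratios to *Sox10* were compared by exact permutation. The fit was tested on simulated data. p-values measure the spread between pools of mice.

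The members and lists were chosen with earlier results of these data known. Named genes are the 10 factors, *Shank3*, the 4 most abundant genes of each list (some list genes are not reported here by name) and the 3 genes most correlated with *Myrf*, *Sox10* and *Tcf7l2*. The lists were oligodendrocyte precursor, newly formed oligodendrocyte, myelin and mature oligodendrocyte, other lineage regulators, Wnt, astrocyte, cortical, thalamic and striatal neuron, and Schwann and olfactory ensheathing cell. Replicate numbers were checked by the correlation across genes of deviations from genotype means. It was 0.30, 0.33 and 0.62 for libraries with the same number and at most 0.27 for others. The number was a block only in an alternative fit, and the main fit and the permutation tests were unpaired. The alternatives changed the pseudocount (0.1 or 5), dropped the filter or raised it to 50, and used upper-quartile and quantile scaling, eBayes without trend or with the robust option, the replicate block, an empirical null, *Olig2* as reference, each library left out, and both libraries numbered 3 left out.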

Additional observations from a re-analysis of the deposited data

How the results depend on the processing

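The number of genes past the adjusted threshold in limma, 0 as reported, was 1 with upper-quartile scaling, 1 with robust eBayes, 1 with the replicate block, 26 with the empirical null, 1 with both libraries numbered 3 left out and 0 to 1 with each library left out. No factor was among those of the replicate block or the empirical null. The number of factors lower at an unadjusted p under 0.05, 3 as reported, was 1 to 4 with each library left out (1 without TG-1), 4 with the empirical null (*Olig1* added, against 3.73% of genes) and 4 with the block (*Sox8* added, against 2.66%), which changed no other call. The number of ratios to *Sox10* without overlap, 1 as reported, was 1 to 4 (2 without TG-2 or WT-1 and 4 without WT-2), where fewer libraries also leave less to overlap.

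Signs changed only for differences near 0 or with a wide spread, in a single library left out or in both numbered 3. The log2 fold change of *Nkx2-2* ran from -0.56 to 0.16 (0.12 without both libraries numbered 3), that of *Tcf7l2* from -0.33 to 0.60 and that of *Zfp488* from -0.16 to 0.02. The difference in the ratio to *Sox10* ran from -0.12 to 0.69 for *Tcf7l2*, from -0.10 to 0.28 for *Sox8*, from -0.20 to 0.28 for *Nkx2-2*, from -0.15 to 0.11 for *Zfp536*, from -0.05 to 0.15 for *Olig1*, from -0.07 to 0.13 for *Olig2* and from -0.08 to 0.35 for *Zfp488*. For *Myrf* it kept its sign, from -0.30 to -0.10. The cause was not tested. With 3 pools of each genotype, only *Nkx6-2* kept an unadjusted p under 0.05 in all 17 alternatives, *Myrf* in 16 and *Zfp536* in 13.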
